A study of Mus musculus with 12 samples.

Results

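The HSP70 and HSP110 family was examined in the aorta of mice given CM-695, as 10 genes of the 22180 that the arrays measured with a probe set naming 1 gene only. The members were taken by exact gene symbol in the platform annotation, and a gene with several such probe sets was represented by the brightest of them, by its average over the 12 arrays. They were Hspa1a, Hspa1b, Hspa1l, Hspa2, Hspa4, Hspa4l, Hspa5, Hspa8, Hspa9 and Hsph1, and all 10 were measured. The animals were female CD-1 mice, which are outbred, with no engineered allele and no age named in the labels. They received either 80 mg/kg CM-695 intraperitoneally at 2 h and again at 1 h before sacrifice (6 mice) or saline (6 mice). CM-695 blocks HDAC6, a mainly cytoplasmic deacetylase whose substrates include the chaperone HSP90, and PDE9, an enzyme that breaks down cyclic GMP. All animals were perfused with buffered saline before the aortic tissue was frozen, and each array carried RNA of 1 animal. The series design mentions 1 saline administration against 2 doses of CM-695, so the drug and the number of injections cannot be told apart.

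HSP70 proteins bind unfolded stretches of other proteins and release them in a cycle driven by ATP. J-domain proteins start the cycle, and nucleotide exchange factors, among them the HSP110 proteins, end it by letting ADP leave. Hspa1a and Hspa1b encode the same stress-inducible cytosolic chaperone, whose genes are transcribed little at rest and strongly once heat shock factor 1 (HSF1) binds heat shock elements in their promoters. Hspa8 encodes the cytosolic form made at all times, Hspa5 the form of the endoplasmic reticulum (ER), also called BiP, and Hspa9 the mitochondrial form, also called mortalin. Hspa1l and Hspa2 are best known from male germ cells. Hsph1, Hspa4 and Hspa4l encode the HSP110 proteins. Through its binding to HSP90, HDAC6 has been linked to the release of HSF1 from its resting complex, which is why the heat shock genes are of interest under an HDAC6 inhibitor.

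The promoter sequences are shown because the members with the widest separation between groups include a pair of genes whose promoters are nearly the same. They come from RefSeq for build GRCm38.p6, cover the 250 bases before the annotated start, and run 5′ to 3′ on the strand of the gene. After a filter on chromosome, windows were left for 8 of the 10 members. Hspa8 and Hspa9 were not searched and are named only. Capitals mark a heat shock element with 2 units or an ER stress element, and Hspa1l has neither. Hspa1a lies on the minus strand and its window is chr17:34972157-34972406. Hspa1b is also on the minus strand, with its window at chr17:34959239-34959488 and its start 12918 bases from that of Hspa1a. Hspa1l runs the other way from a start 547 bases from that of Hspa1a, and its window on the plus strand is chr17:34972453-34972702. The window of Hspa5 on the plus strand is chr2:34771840-34772089.
Hspa1a: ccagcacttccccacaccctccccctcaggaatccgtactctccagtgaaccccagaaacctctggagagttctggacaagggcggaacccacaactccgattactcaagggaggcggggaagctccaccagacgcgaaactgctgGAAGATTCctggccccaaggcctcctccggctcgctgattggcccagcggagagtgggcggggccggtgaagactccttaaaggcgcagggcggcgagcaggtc
Hspa1b: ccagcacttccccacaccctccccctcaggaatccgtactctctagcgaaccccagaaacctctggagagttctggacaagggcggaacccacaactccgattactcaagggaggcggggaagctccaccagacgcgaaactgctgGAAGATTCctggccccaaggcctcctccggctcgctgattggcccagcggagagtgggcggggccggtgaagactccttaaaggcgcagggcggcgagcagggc
Hspa1l: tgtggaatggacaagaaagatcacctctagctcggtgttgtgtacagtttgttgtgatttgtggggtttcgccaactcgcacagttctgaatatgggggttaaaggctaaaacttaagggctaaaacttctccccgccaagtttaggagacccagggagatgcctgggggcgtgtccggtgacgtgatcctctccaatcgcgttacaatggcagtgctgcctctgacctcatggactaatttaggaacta
Hspa5: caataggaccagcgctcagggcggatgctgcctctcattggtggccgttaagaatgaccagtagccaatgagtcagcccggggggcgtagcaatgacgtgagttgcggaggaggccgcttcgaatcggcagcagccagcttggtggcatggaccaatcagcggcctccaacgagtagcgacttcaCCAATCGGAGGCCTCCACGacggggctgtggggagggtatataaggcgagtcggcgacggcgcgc
The windows of Hspa1a and Hspa1b matched at 247 of 250 aligned bases with no gap. The windows of the 2 annotated starts of Hsph1 reach into the annotated gene, so only the 28 bases around its element are shown, chr5:149636352-149636379 on the minus strand.
Hsph1: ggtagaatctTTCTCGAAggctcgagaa

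A heat shock element was searched as alternating GAA and TTC units, each pair separated by any 2 bases, on both strands. Every letter of a unit had to match, so a unit with a changed base was not counted. With 2 units it reads GAANNTTC or TTCNNGAA, and with 3 units GAANNTTCNNGAA, which contains both shorter forms. The 2-unit form that starts with GAA was found in Hspa1a and Hspa1b, in each 104 to 97 bases before the start, and the form that starts with TTC in Hsph1. The other 5 members searched (Hspa1l, Hspa2, Hspa4, Hspa4l and Hspa5) had neither in this window. Among 32851 promoter windows of the same length, 6.69% held the first form, 7.17% the second and 12.8% either. The exact 3-unit form was in 0.466% of the windows and in none of the windows of the members searched. Beside the 2-unit matches of Hspa1a, Hspa1b and Hsph1, the printed bases continue the spacing with a unit changed at 1 base and a GAA. Such near matches were not counted, in the members or in all windows, so longer imperfect elements are not excluded. The ER stress element, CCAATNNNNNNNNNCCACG, was found once in Hspa5, 65 to 47 bases before the start, and in 0.113% of all windows. Its CCAAT part overlaps 1 of the 4 matches of the CCAAT box in the Hspa5 window. The CCAAT box, to which nuclear factor Y binds, was also in the windows of Hspa1a, Hspa1b, Hspa1l, Hspa2 and Hsph1, but 33.8% of all windows hold it. TATAAA was in no window of the members searched, against 12.4% of all. These matches describe letters in a window and do not show that a factor was bound.

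**Figure D1:**
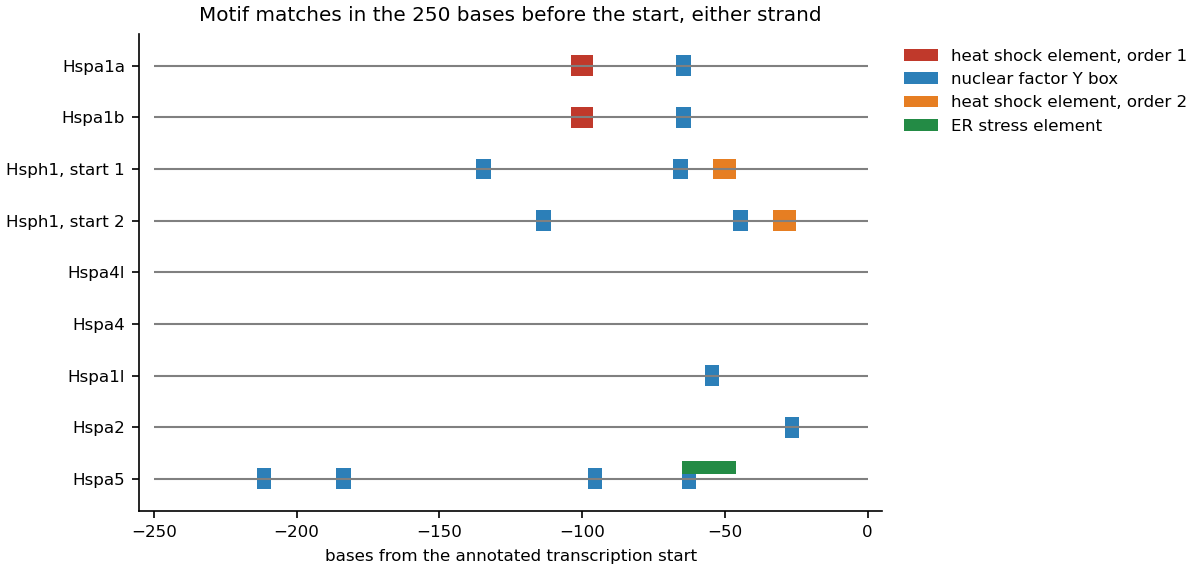
Positions of motif matches on either strand in the 250 bases before each annotated start (x axis, bases from the start; 1 row per start, 2 for Hsph1). Heat shock elements of order 1 (GAA unit first) stand 104 to 97 bases before the start in both Hspa1a and Hspa1b, order 2 (TTC unit first) marks Hsph1, and the ER stress element marks Hspa5.

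Values are log2 expression after RMA, which subtracts background, brings the arrays to a common distribution and combines probes into 1 value per probe set. Over the 12 arrays the medians lay between 4.69 and 4.74 and the correlations between arrays between 0.957 and 0.977. Markers of vessel wall cells lay above the median of all values, but so did those of other tissues. This comparison therefore does not identify the tissue as aorta. Smooth muscle, endothelial and fibroblast markers exceeded the median of all values with 9 of 9 genes each. So did 8 of 8 adipocyte markers, among them the brown fat gene Ucp1 at 12.55 after CM-695 and 12.61 after vehicle, and 10 of 11 heart muscle markers, so fat and heart muscle RNA was present as well. In such mixed tissue, fewer cells of a type and less RNA per cell cannot be told apart.

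For both stress-inducible genes the treated and the control mice did not overlap, with the treated mice higher. The highest of the vehicle mice for Hspa1a was at 5.07 (lowest 3.91, median 4.96), while the CM-695 mice ran from 5.77 through a median of 6.29 to 7.72. The group means were 6.60 ± 0.87 and 4.72 ± 0.46 (SD, n = 6 each), a difference of 1.87 log2 (SE 0.35, 95% confidence interval 1.11 to 2.64). Only 2 of 22180 genes differed upward by more. The vehicle mean lay at the median of all values, 4.72, and vehicle mice 1 and 5 lay below it at 3.91 and 4.42, a level that does not separate weak expression from none, so the size of the difference depends on a baseline not shown to be above background. For Hspa1b the vehicle mice lay between 5.74 and 6.70 (median 6.36) and the CM-695 mice between 6.87 and 8.95 (median 7.48), a difference of 1.54 (SE 0.36, interval 0.77 to 2.31) that ranked 8 among all genes. The lowest treated mouse thus exceeded the highest control by less for Hspa1b than for Hspa1a. A further probe set that names Hspa1a and Hspa1b together was dim, at 3.74 ± 0.42 against 3.05 ± 0.15 (SD, n = 6 each), and exceeded all controls in 5 of 6 animals given CM-695.

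Across all 41345 probe sets neither gene passed the threshold of 0.05 after Benjamini-Hochberg adjustment (limma adjusted p = 0.0647 for Hspa1a and 0.141 for Hspa1b). Adjusted over 22180 genes with 1 probe set each, Hspa1a passed (limma adjusted p = 0.0286) and Hspa1b did not (0.0823), and with dim probe sets left out Hspa1a also passed (0.0327). Dim meant a mean at or below the median of all values in both groups. That filter used the group means, so it is not independent of the comparison. The coding sequences of both genes are nearly the same, so a probe set of 1 can take up signal of the other and their separate sizes are uncertain.

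**Figure D2:**
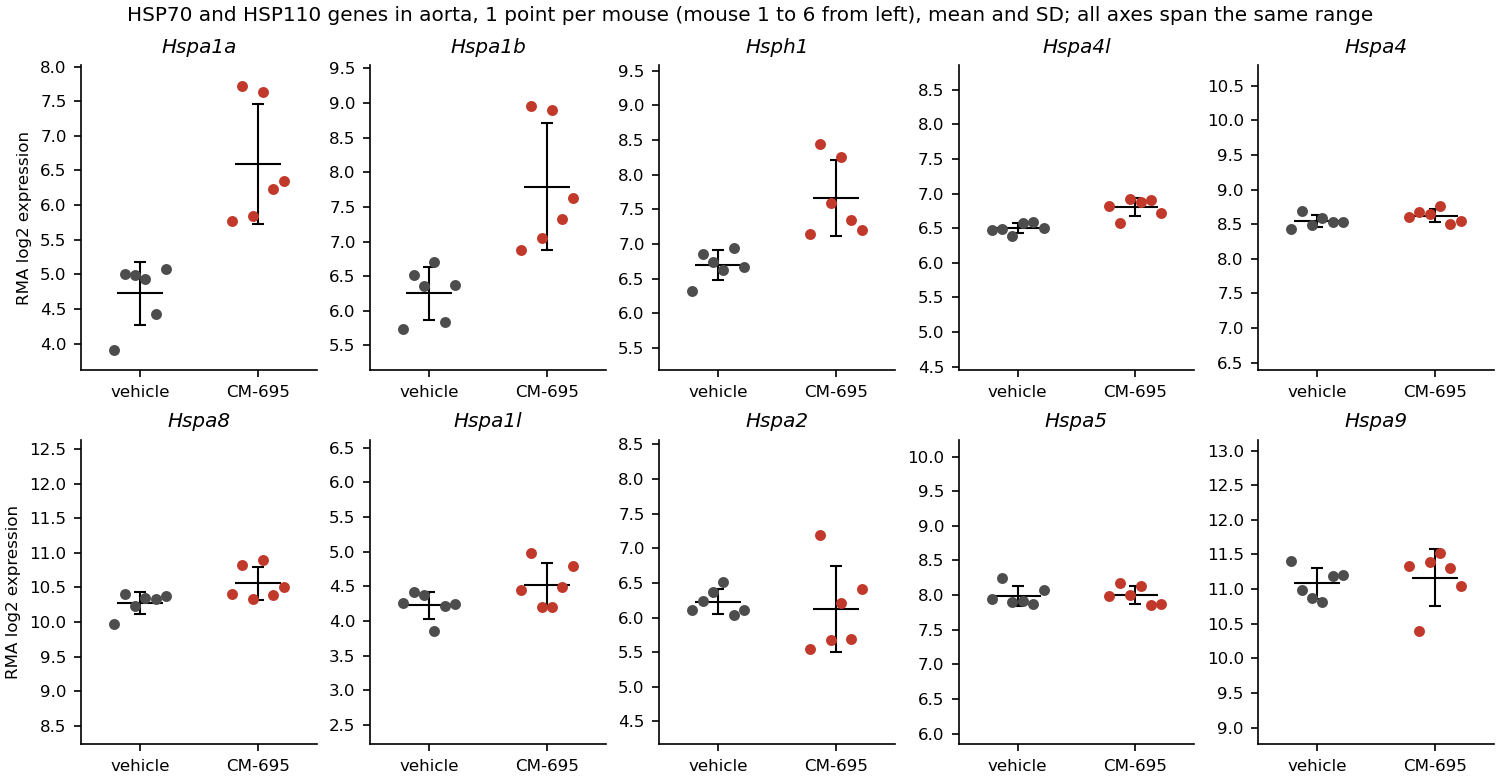
RMA log2 expression (y axis) of the 10 members in each mouse, with vehicle in grey and CM-695 in red, mouse 1 to 6 from left in each group, a horizontal bar for the mean and whiskers for the SD over 6 mice. All panels span the same number of log2 units, and the groups are separate for Hspa1a, Hspa1b and Hsph1 only.

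Among the HSP110 genes, Hsph1 had the largest difference, and it was tested against Hspa4 but not against Hspa4l. That pair was chosen with earlier results of these data known. Hsph1, which encodes the HSP110 protein also called HSP105, was between 6.32 and 6.94 in vehicle mice (median 6.71) and between 7.15 and 8.44 in CM-695 mice (median 7.47), again without overlap. The difference was 0.97 log2 (SE 0.22, interval 0.49 to 1.44) or 1.96-fold (limma adjusted p = 0.136). Hspa4l was higher by 0.30 (SE 0.084, interval 0.12 to 0.48, limma adjusted p = 0.257), at 6.80 ± 0.13 against 6.50 ± 0.071 (SD, n = 6 each). In 5 of 6 treated mice it exceeded the highest vehicle value of 6.59, and the exception was CM-695 mouse 2 at 6.58. Hspa4, the broadly expressed relative, ran from 8.50 to 8.76 after CM-695 and from 8.43 to 8.70 after vehicle, a difference of 0.08 (SE 0.079) whose interval of -0.09 to 0.25 excludes a shift as large as that of Hsph1. Measured within each array, Hsph1 moved up against Hspa4 by 0.89 log2 (SE 0.21), with 6 of 6 treated mice above all controls (exact two-sided permutation test over 924 assignments, p = 0.00216, the smallest this design can give; adjusted p = 0.00253 over 7 such pairs).

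The constitutive cytosolic gene Hspa8 was higher by a small amount. Its brightest probe set measured 9.98 to 10.41 in vehicle mice (median 10.34) and 10.33 to 10.90 in CM-695 mice (median 10.46). The difference was 0.28 log2 (SE 0.12, interval 0.02 to 0.54, limma adjusted p = 0.507), and 3 of 6 treated mice exceeded every control. A further 3 probe sets name only Hspa8, and their differences were 0.49 (SE 0.15), 0.53 (SE 0.15) and 0.54 (SE 0.15), with 4, 5 and 5 of 6 treated mice above every control. The last 2 of these never differed from each other by more than 0.069 on any array, so they are not separate evidence. The mean of all 4 gave 0.46 (limma adjusted p = 0.272), so the size for Hspa8 depends on the probe set by more than 1.5 times. A probe set that names Hspa8 together with Snord14e, a small nucleolar RNA, differed by 0.06 (SE 0.20).

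**Figure D3:**
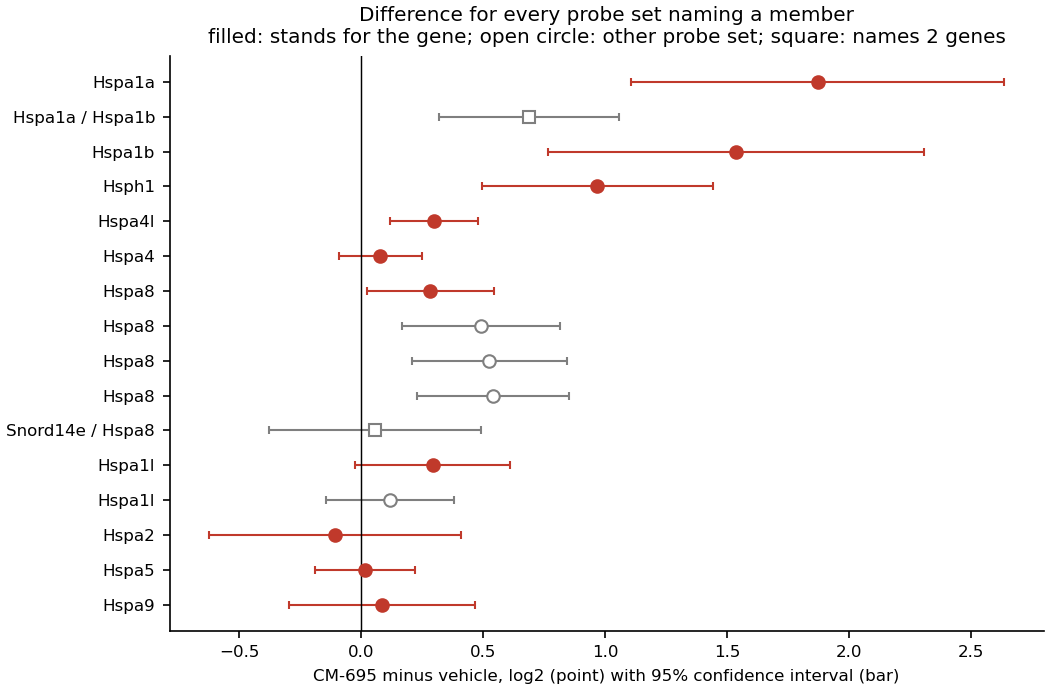
CM-695 minus vehicle on the log2 scale (x axis, point) with its 95% confidence interval (bar) for every probe set that names a member. Filled circles stand for the gene, open circles are other probe sets of the same gene and squares name 2 genes. The intervals of Hspa1a, Hspa1b and Hsph1 begin at 1.11, 0.77 and 0.49, while those of Hspa4, Hspa5 and Hspa9 include 0.

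The ER and mitochondrial forms did not differ detectably. Hspa5 ran from 7.85 to 8.17 (median 8.001) after CM-695 and from 7.87 to 8.24 (median 7.93) after vehicle, and the groups overlapped almost completely. Its difference was 0.02 (SE 0.095, interval -0.19 to 0.22, limma adjusted p = 0.976), and the sign turned in 7 of 22 alternatives. Hspa9 ran from 10.40 to 11.52 (median 11.32) after CM-695 and from 10.82 to 11.41 (median 11.09) after vehicle, a difference of 0.08 (SE 0.18, interval -0.30 to 0.47, limma adjusted p = 0.922). CM-695 mouse 2 was the lowest of all 12 for Hspa9, and without it the difference was 0.24. That mouse also had the lowest mean of 8 adipocyte markers, 9.72 against 10.17 to 10.57 in the other 5 treated mice and 10.07 to 10.39 in vehicle mice, and 8 of 8 of these markers exceeded the median of all values. The part of fat tissue in the Hspa9 values was not tested.

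Hspa1l and Hspa2 were measured in tissue in which 4 of 4 germ cell markers lay below the median of all values. Hspa1l, the neighbour that faces Hspa1a, ran from 4.19 to 4.99 (median 4.47) after CM-695 and from 3.85 to 4.41 (median 4.25) after vehicle, close to the median of all values, with the same limit as Hspa1a in vehicle mice. It differed by 0.29 (SE 0.15, interval -0.02 to 0.61, limma adjusted p = 0.581), and by 0.12 (SE 0.12) in its dimmer probe set. Hspa2 differed by -0.11 (SE 0.24, interval -0.62 to 0.41, limma adjusted p = 0.928). Its treated mice ran from 5.55 to 7.19 (median 5.95), below and above the vehicle range of 6.04 to 6.51 (median 6.17). The treated mice thus spread more widely for Hspa2, with an SD of 0.63 against 0.18.

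As a family, 9 of 10 members had a difference above 0, with a median of 0.29 log2, while over all 22180 genes 55.3% lay above 0 and the median was 0.02. None of the 10 passed over all probe sets, where 64 or 0.155% did. At an unadjusted limma p under 0.05, 5 of 10 were higher and 0 lower, against 4.96% and 4.14% of all genes. All treated mice exceeded all vehicle mice for 3 of 10 members and for 0.442% of all genes. The members were chosen with earlier results of these data known, so these shares are a description. Hspa1a and Hspa1b can share probe signal and are not shown to be independent members of these counts.

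Members of different classes were then compared within each array, which removes any factor that scales a whole array. Of 7 pairs, 7 passed (exact two-sided permutation tests, adjusted over the 7 pairs), and these pairs too were chosen with earlier results known. Hspa1a moved up against Hspa8 by 1.59 log2 (SE 0.30), against Hspa5 by 1.86 (SE 0.36) and against Hspa9 by 1.79 (SE 0.53), each with 6 of 6 treated mice above all controls (exact permutation test, adjusted p = 0.00253 each). Hspa1b moved up against Hspa8 by 1.25 (SE 0.31) and against Hspa5 by 1.52 (SE 0.37), with the same separation and the same adjusted p. Against Hspa9 it moved by 1.45 (SE 0.53), with 4 of 6 treated mice above all controls (exact permutation test, adjusted p = 0.0108). Without CM-695 mice 2 and 4 that last pair differed by 0.78 and no longer passed (adjusted p = 0.0619). The pairs with Hspa8 used only its brightest probe set, with a difference of 0.28. The other probe sets that name only Hspa8 differed by 0.49, 0.53 and 0.54, and the pairs were not rerun with them. The pairs share members, so they are not independent of each other.

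**Figure D4:**
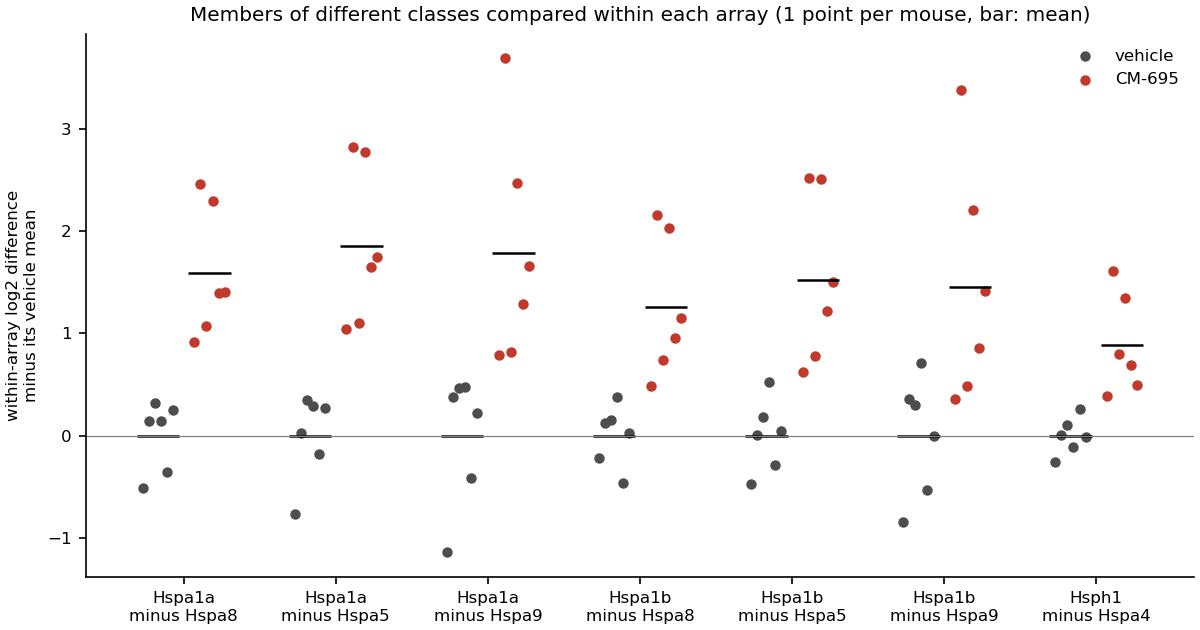
Log2 difference between 2 members on the same array, minus its mean over vehicle mice (y axis), for 7 pairs of members (x axis), 1 point per mouse and a bar for each group mean. In 6 of 7 pairs the CM-695 mice (red) lie entirely above the vehicle mice (grey), and for Hspa1b minus Hspa9 the groups overlap.

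Several members shared their highest treated mice or their lowest vehicle mouse, while the order of the other mice differed between most members. CM-695 mice 2 and 4 were the highest treated mice for 6 of 10 members, namely Hspa1a, Hspa1b, Hsph1, Hspa8, Hspa4 and Hspa5. Above the vehicle mean, Hspa1a was higher by 3.001 and 2.92 in these 2 mice and by 1.05 to 1.63 in the other 4, and Hsph1 by 1.74 and 1.56 against 0.45 to 0.90. For Hspa8 the shifts were 0.55 and 0.62 against 0.06 to 0.23. Among vehicle mice, mouse 1 was the lowest for 5 of 10 members, namely Hspa1a, Hspa1b, Hsph1, Hspa8 and Hspa4. These mice were picked with earlier results of these data known, and the same counts were not taken over all genes. The shared order is therefore not shown to be particular to the family. Without CM-695 mice 2 and 4 Hspa1a differed by 1.33, Hspa1b by 0.97, Hsph1 by 0.63 and Hspa8 by 0.13, with limma adjusted p from 0.0594 to 0.689.

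**Figure D5:**
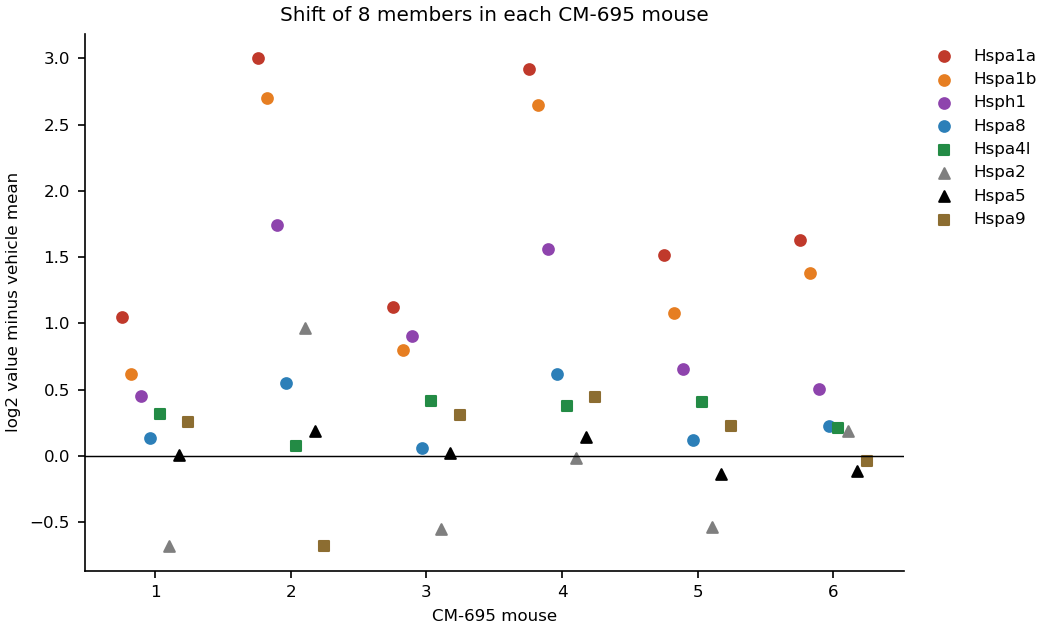
Log2 value minus the vehicle mean (y axis) of 8 members in each of the 6 CM-695 mice (x axis), 1 point per gene and mouse. Mice 2 and 4 stand highest for Hspa1a, at 3.001 and 2.92, while mouse 2 is the only one in which Hspa9 lies far below 0.

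As deviations from the group means over all 12 mice, Hspa1b followed Hspa1a most closely of the other 9 members (Pearson r = 0.97, Spearman rho = 0.94, and r = 0.93 without CM-695 mice 2 and 4). Their probe sets can take up each other's signal, so they are not shown to be separate measurements. Hspa8 came next (r = 0.93, rho = 0.91, r = 0.86 without both mice), then Hsph1 (r = 0.84, rho = 0.80, r = 0.59 without both). Then came Hspa2 (r = 0.75), Hspa4 (r = 0.61), Hspa5 (r = 0.58) and Hspa1l (r = 0.23). Hspa4l (r = -0.42, rho = -0.39, r = -0.33 without both) and Hspa9 (r = -0.53, rho = -0.44, r = -0.75 without both) ran the other way. Among 18676 named genes outside the family the 8 most like Hspa1a in this measure were Mad1l1 (r = 0.97), Fam3c, Lrrc49, the olfactory receptor gene Olfr715, Wdfy3, Tmem45a, the J-domain gene Dnajc8 and Ctps, the last at r = 0.92. None of these 8 passed between the groups, where Mad1l1 differed by -0.03 (SE 0.079) and Ctps by 0.19 (SE 0.22). The correlations describe 12 arrays that share 1 normalization, and the 8 genes were the extreme of 18676.

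Markers of some cell types differed between the groups at an unadjusted p. The mean of 11 heart muscle markers ran from 5.93 to 8.10 in CM-695 mice and from 7.07 to 8.89 in vehicle mice, with CM-695 mice 2 and 4 at 6.86 and 6.30, and 8 of 11 markers were lower at an unadjusted limma p under 0.05. With this mean as a covariate the differences were 1.56 for Hspa1a, 1.24 for Hspa1b and 0.94 for Hsph1 (limma adjusted p = 0.503, 0.639 and 0.556). The mean of 9 smooth muscle markers was 10.53 in CM-695 mouse 2, 8.66 to 9.64 in the other treated mice and 9.15 to 10.03 in vehicle mice. With that mean as a covariate, an alternative added after the data had been seen, the differences were 2.12 for Hspa1a, 1.80 for Hspa1b and 1.08 for Hsph1, and the first 2 passed (limma adjusted p = 0.00730, 0.0100 and 0.0526). The 2 covariates thus moved the differences in opposite ways, and no member's direction turned with either except Hspa2 and Hspa9 with smooth muscle, at 0.10 and -0.05. Fibroblast markers were lower at an unadjusted limma p under 0.05 for 4 of 9, and platelet markers higher for 3 of 6. The fibroblast means ran from 8.16 to 8.59 after CM-695 and from 8.32 to 9.12 after vehicle. Among 9 endothelial and 5 lymphocyte markers, 2 of each list were higher and 1 lower, and 0 of 9 smooth muscle markers reached that p. Over all genes 4.96% were higher and 4.14% lower. No marker of the 12 lists passed the adjusted threshold. The part of cell makeup in the chaperone values was not tested beyond these covariates.

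The partners of the chaperone cycle showed no shift as wide as that of the inducible members, and no gene of the 8 lists passed over all probe sets. Their medians stand beside 0.02 over all genes, and their counts at an unadjusted p beside 4.96% higher and 4.14% lower. Genes that tie HSP70 to HSP90 or to degradation had a median of 0.13 over 7 measured genes, 2 of them higher at an unadjusted p under 0.05. These were Stip1, the adaptor that hands clients from HSP70 to HSP90, at 0.56 (SE 0.13, limma adjusted p = 0.153) and the inducible HSP90 gene Hsp90aa1 at 0.36 (SE 0.11). The adaptor gene St13 differed by 0.22 (SE 0.11). Other targets of HSF1 had a median of 0.29 over 11 measured genes, with 5 higher and 1 lower at an unadjusted p under 0.05. Among them were Cacybp, a binding partner of a ubiquitin ligase complex, at 0.46 (SE 0.15), the immunophilin gene Fkbp4 at 0.33 (SE 0.12) and the small heat shock gene Hspb8 at 0.35 (SE 0.13). The lower gene was Cryab, another small heat shock gene, at -0.65 (SE 0.28, limma adjusted p = 0.507), the largest difference of this list in either direction, named here after its values were seen.

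The J-domain proteins that serve cytosolic HSP70 had a median of -0.00 over 8 measured genes, 1 higher and 0 lower at an unadjusted p under 0.05. Dnajb2 differed by 0.28 (SE 0.091), the stress-inducible Dnajb1 by 0.19 (SE 0.11) and Dnaja2 by -0.13 (SE 0.096). Nucleotide exchange factors outside the HSP110 group had a median of 0.06 over 9 genes with 0 of 9 at an unadjusted p under 0.05, the smallest p belonging to Hspbp1 (0.08, SE 0.087), Bag2 (0.07, SE 0.095) and Bag5 (0.06, SE 0.095). Further HSP70-like genes had the same median over 5 genes, again with 0 of 5, namely Hspa12b (0.21, SE 0.10), Hspa12a (0.27, SE 0.15), Hyou1, the ER relative of HSP110 (0.06, SE 0.093), and another 2. Of 5 measured heat shock factors and regulators 0 reached an unadjusted p of 0.05, with Hsf2 at -0.20 (SE 0.10), Hsf4 at 0.21 (SE 0.11) and Hsf5 at -0.12 (SE 0.12). Hsf1 had no probe set naming it alone.

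No partner of the ER and mitochondrial members passed the adjusted threshold. Of 18 measured ER partners and targets of the unfolded protein response, 2 were higher and 1 lower at an unadjusted p under 0.05, and the median was -0.02. Herpud1, which serves degradation of ER proteins, differed by -0.64 (SE 0.17, limma adjusted p = 0.214), against 0.24 (SE 0.095) for Creld2 and 0.28 (SE 0.12) for Manf, both secretory pathway proteins induced by ER stress. The mitochondrial partners of Hspa9 had a median of 0.13 over 13 genes, with 0 of 13 at an unadjusted p under 0.05. Of these 13, 10 lay above 0 and 3 below, beside 55.3% above 0 over all genes. The protease genes Clpp and Clpx differed by 0.25 (SE 0.14) and 0.38 (SE 0.21) and Iscu, the scaffold for iron-sulfur clusters, by 0.18 (SE 0.13). CM-695 mouse 2, low for Hspa9, was also the lowest treated mouse for Clpx, at 6.75 against 7.64 to 8.05 in the others.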

How the data were processed

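The authors deposited log2 expression values made with RMA, per the submitters' processing notes, for 41345 probe sets on 12 arrays, 1 mouse each. The software version is not given in the sources used here, and no detection calls were used. In the platform annotation 23521 probe sets had 1 gene symbol, 1814 several and 16010 none. CM-695 minus vehicle was fitted over all probe sets with limma 3.58.1 in R 4.3.3 (lmFit, eBayes, two-sided) and Benjamini-Hochberg adjustment. Within-array differences between 2 members were tested by exact permutation over 924 assignments of mice. The procedure was tested on simulated data. The members, pairs, lists and alternatives were chosen with earlier results of these data known. All members were named, with up to 3 genes of the smallest p from each of the 8 partner lists and the 8 genes most correlated with Hspa1a. Precision is limited by 6 mice per group.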

Additional observations from a re-analysis of the deposited data

Results flagged for a closer look

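Of 98 groups of 6 mice examined, 4 held a mouse separated from the nearest other by more than 0.625 of the range of the group, where chance separates about 1 in 20. Vehicle mouse 4 was low for Hspa1l, at 3.85, with the other vehicle mice between 4.22 and 4.41. CM-695 mouse 4 was high for Hyou1, at 8.29, the others lying between 7.93 and 8.02. CM-695 mouse 3 was high for Hsf2, at 5.72 against 5.41 to 5.48. CM-695 mouse 2 was low for Clpx, at 6.75 against 7.64 to 8.05.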

How the results depend on the processing

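The differences of Hspa1a, Hspa1b, Hspa1l, Hspa4, Hspa4l, Hspa8 and Hsph1 kept their direction under every alternative run. Hspa1a passed the threshold in 3 of 22, with dim probe sets left out (1.87) and with 1 probe set per gene (1.87), where fewer features were adjusted over, and with the smooth muscle mean as a covariate (2.12), where Hspa1b passed too (1.80). Its adjusted p ran from 0.00730 to 0.503. Hspa5 turned sign with array quality weights (-0.0044) and without CM-695 mice 2 and 4 (-0.059). With 1 mouse left out Hspa5 ran from -0.018 to 0.066, below 0 when vehicle mouse 3 (-0.0015), vehicle mouse 4 (-0.0010), vehicle mouse 5 (-0.0095), CM-695 mouse 2 (-0.018) or CM-695 mouse 4 (-0.010) was left out. Hspa2 ran from -0.32 to 0.0083, turning without CM-695 mouse 1 (0.0083), and with the smooth muscle covariate Hspa2 (0.10) and Hspa9 (-0.053) turned. The cause was not tested. The 7 pairs kept their call under the 15 alternatives run for them, except Hspa1b minus Hspa9 without CM-695 mice 2 and 4 (0.78). None of these alternatives used another probe set of Hspa8.

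Of all probe sets, 64 passed the threshold, against 15 with the replicate number as a block, 15 with the heart muscle covariate, 108 with dim probe sets left out, 115 with the smooth muscle covariate and 22 to 98 with 1 mouse left out (22 without CM-695 mouse 5, 98 without CM-695 mouse 2). The titles' numbers are not stated to pair the mice. Deviations of same-numbered mice correlated between -0.10 and 0.10, which cannot show whether mice were paired, since differently numbered mice were not compared. With the replicate block no member's call changed, and Hspa1a kept a difference of 1.87 (limma adjusted p = 0.104). Low values without detection calls limit Hspa1l and, in vehicle mice, Hspa1a.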

Other observations

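Several members correlated with the mean of the smooth muscle markers within the CM-695 group, Hspa2 the most closely. None of the 20 relations passed after adjustment, so they are a description. Within the CM-695 group the mean of 9 such markers and Hspa2 correlated at r = 0.99 (exact permutation p = 0.00833, adjusted p = 0.167 over 20 relations) and rho = 0.943 (exact p = 0.0167, adjusted p = 0.222), with r = 0.998 without the 2 mice farthest from the median, which leaves 4. Within the vehicle group r was 0.854 (exact permutation p = 0.0639, adjusted p = 0.229) and rho 0.657 (exact p = 0.175, adjusted p = 0.389), with r = 0.742 without the 2 farthest. Both inducible genes were also higher in treated mice with a higher smooth muscle mean. In the CM-695 group Hspa1a gave r = 0.803 (exact permutation p = 0.0778, adjusted p = 0.229) and rho = 0.886 (exact p = 0.0333, adjusted p = 0.222), with r = 0.559 without the 2 farthest mice. Hspa1b gave r = 0.812 (exact permutation p = 0.0639, adjusted p = 0.229) and rho = 0.886 (exact p = 0.0333, adjusted p = 0.222), with r = 0.630 without them. In the vehicle group r was 0.507 for Hspa1a and 0.714 for Hspa1b, with rho at 0.029 and 0.543 (exact permutation p from 0.214 to 1). Without the 2 farthest vehicle mice, which leaves 4, r was 0.998 for Hspa1a and 0.947 for Hspa1b.

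Hspa4l and Hspa9 ran the other way. In the CM-695 group Hspa4l gave r = -0.906 (exact permutation p = 0.0417, adjusted p = 0.229) and rho = -0.829 (exact p = 0.0583, adjusted p = 0.292), with r = -0.594 without the 2 farthest mice. Hspa9 gave r = -0.860 in the CM-695 group and -0.861 in the vehicle group (exact permutation p = 0.0917 and adjusted p = 0.229 for each), with rho = -0.657 in both (exact p = 0.175, adjusted p = 0.389). Without the 2 farthest mice r was -0.339 and -0.957. Of 20 relations, 10 members in 2 groups, none passed after adjustment.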
